A study of Homo sapiens with 6 samples.

Results

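The DNA repair genes described here are 45 listed genes of homologous recombination, the Fanconi anaemia pathway, mismatch repair, excision repair, end joining and the damage checkpoint. Each was taken, by its gene symbol, from the probe set that carried that symbol alone and had the highest mean over the 6 arrays. Of the 45 genes, 41 had such a probe set and were measured, among 18417 genes in all. ERCC5 lay only on a probe set with several symbols, and 3 more listed genes were not analysed here. The samples were total RNA from an established line of human embryonic stem cells, WA09, with 1 expression array per sample and 2 arrays in each of 3 groups. Undifferentiated cells (hESC) were grown in a defined medium, StemPro. ISL1+ nascent mesoderm (INM) and smooth muscle cells (SMC) came from the same line after that medium was supplemented with 25 ng/ml of Wnt3a and 50 ng/ml of BMP4, for 4 days and for 21 days. All 3 groups share 1 line, and the labels neither describe a sort of the derivatives nor call the replicates separate cultures. The p-values therefore measure no more than how far these 2 arrays per group lie apart, which can be technical.

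Homologous recombination copies an intact sister chromatid to mend a broken one, and so works in S and G2 phase. The Fanconi proteins clear cross-links between the DNA strands and hand the break to recombination, and mismatch repair corrects copying errors behind the replication fork. Nucleotide excision removes bulky lesions such as ultraviolet damage, base excision removes single damaged or deaminated bases, and end joining rejoins broken ends at any stage of the cell cycle. ATM and ATR are the kinases that sense damage, and CHEK2 and CHEK1 are the kinases they activate. Pluripotent stem cells divide fast with a short G1 phase and are known for strong expression of recombination and mismatch repair genes.

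More repair genes fell than rose in the smooth muscle cells relative to the stem cells. Calls were made with limma's moderated test at a Benjamini-Hochberg adjusted p under 0.05, adjusted over all 18417 genes. In SMC versus hESC 21 of the 41 members fell (51.2%), 4 rose (9.76%) and 16 did neither, while 17.6% of all genes tested were called lower and 19.7% higher (37.2% either way). In INM versus hESC 7 members fell (17.1%) and 4 rose (9.76%), with 14.8% of all genes called lower and 18.9% higher (33.8% either way). In SMC versus INM 10 members fell (24.4%) and 1 rose (2.44%), beside 11.1% of all genes called lower and 9.94% higher (21.0% either way). On the log2 scale the members' median change in SMC versus hESC was -0.44, beside -0.05 over all genes tested. It was -0.16 in INM versus hESC, beside -0.03 over all genes, and -0.19 in SMC versus INM, beside -0.02. The 2 SMC arrays lay wholly below the 2 hESC arrays in 29 members (70.7%) and wholly above them in 11 (26.8%), beside 40.3% and 35.0% of all genes tested. The comparisons with hESC share the hESC arrays, and both comparisons of INM share the INM arrays. Genes of DNA replication and mitosis also moved in SMC versus hESC, where 14 of 24 replication genes fell and 1 rose (median -0.90), and 7 of 20 mitosis genes fell (median -0.91). The SMC arrays lay wholly below the hESC arrays in 23 of the 24 replication genes and 20 of the 20 mitosis genes. They lay wholly above them in 1 replication gene and 0 mitosis genes. MKI67, a marker of dividing cells, was at 8.90 and 8.98 in SMC, against 10.18 and 10.28 in hESC. The part of cell division in the repair values was not tested, and in bulk RNA fewer cells of a type and less RNA per cell cannot be told apart.

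**Figure D1:**
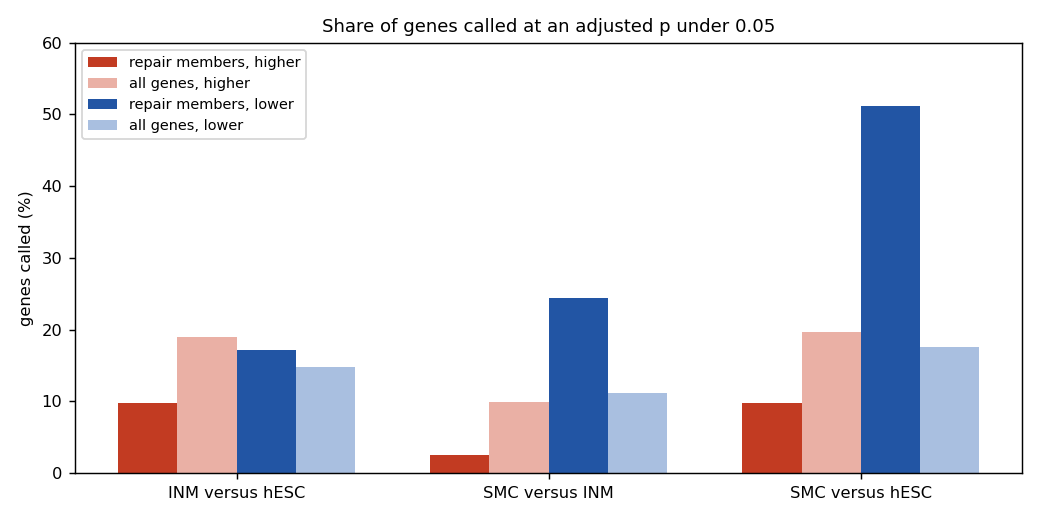
Percent of genes called higher or lower (vertical axis) in each comparison (horizontal axis), for the 41 measured repair genes and for all 18417 genes tested. The members' lower share stands at 51.2% in SMC versus hESC, beside 17.6% of all genes.

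The labels were checked on marker genes. SOX2, a factor of the pluripotent state, was at 11.44 and 11.47 in the stem cells, 5.63 and 5.81 at day 4 (INM) and 5.76 and 5.61 at day 21 (SMC) (log2 values). ISL1 was at 5.54 and 5.28 on the hESC arrays, 9.46 and 9.55 on the INM arrays and 6.41 and 6.31 on the SMC arrays. ACTA2, smooth muscle alpha-actin, was at 6.44 and 6.41 in the stem cells, 11.97 and 10.85 at day 4 (INM) and 13.09 and 13.03 at day 21 (SMC). These genes followed the labels, but MYH11, the myosin heavy chain that defines mature smooth muscle, was at 5.59 and 5.43 in SMC, against 5.77 and 5.51 in hESC, and was not called (adjusted p = 0.51, limma). SOX2 does not stand for all pluripotency markers at day 4. Of 8 such markers, limma called 5 lower in INM versus hESC, with changes between -5.83 and -0.29 over the list. The INM arrays lay wholly below the hESC arrays in all 8. SMC versus hESC had 8 called lower, and SMC versus INM had 5. The list's median level was still 8.81 and 8.93 at day 4 (INM), against 6.49 and 6.32 at day 21 (SMC). Of 8 smooth muscle markers, 6 were already called higher in INM versus hESC, and 7 in SMC versus hESC. In SMC versus INM 2 of the 8 rose and 1 fell. Of 8 nascent mesoderm markers, 8 rose in INM versus hESC, and 7 rose and 1 fell in SMC versus hESC. In SMC versus INM 5 of these fell and 1 rose. Of 6 endothelial markers, 3 were called higher in SMC versus hESC (PECAM1, CDH5 and ERG), with a median level of 6.90 and 6.96 on the SMC arrays, against 5.78 and 5.61 in hESC. VWF, which marks mature endothelium, was at 5.30 and 5.46 in SMC, against 5.56 and 5.35 in hESC, and the part of such cells was not tested. Of the 3 pairs of arrays the INM pair was the widest, with a pooled replicate SD over the members of 0.36 in INM, 0.11 in SMC and 0.10 in hESC. Over all genes tested that SD was 0.31 in INM, 0.13 in SMC and 0.15 in hESC, so the INM pair was wide beyond the repair genes.

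The gap between the INM arrays ran through the repair genes and decides several values at day 4. INM replicate 2 was the higher array in 36 of the 41 members, beside 9438 of 18417 genes tested. The members' median of replicate 1 minus replicate 2 was -0.40. The same difference had a median of -0.75 over 24 DNA replication genes and -1.10 over 20 mitosis genes, and replicate 2 was the higher in 24 and 20 of them. Over all genes tested its median was -0.01. Both arrays of the other groups lay close, with member medians of -0.05 in hESC and 0.04 in SMC. In 17 members the INM arrays differed by more than 0.5, and in 0 members the hESC or SMC arrays did. In 15 members INM replicate 1 lay below both hESC arrays while replicate 2 did not. No share over all genes was taken for the gap of 0.5 or for this pattern, so neither can be called particular to repair genes. Without INM replicate 1, 6 members were called lower and 8 higher in INM versus hESC, beside 17.3% and 23.5% of all genes, so both shares lay near those of all genes. Without INM replicate 2, 18 were called lower and 4 higher, beside 19% and 21.9% of all genes. What the INM arrays differ in besides these lists was not tested.

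**Figure D2:**
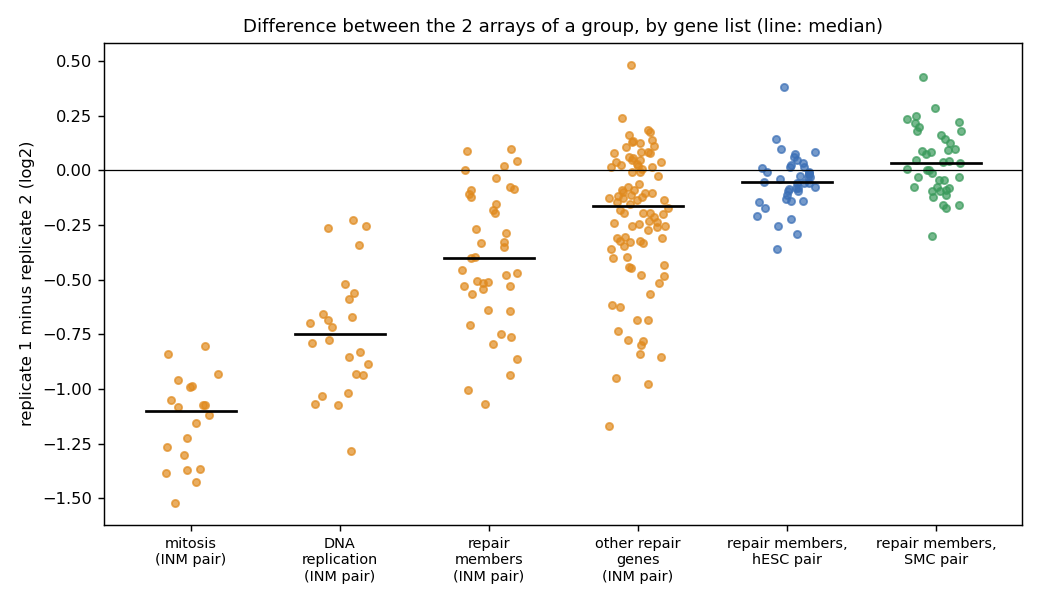
Replicate 1 minus replicate 2 (log2, vertical axis) for each gene of a list (points) with the list's median (line), within the INM pair for mitosis, DNA replication, repair members and other repair genes, and within the hESC and SMC pairs for the repair members. The mitosis median lies at -1.10 and the repair members at -0.40 in INM, against -0.05 in hESC and 0.04 in SMC.

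Among 8 measured homologous recombination genes, 5 fell in SMC versus hESC (62.5%), 1 rose (12.5%) and 2 were not called. Of all genes tested 17.6% fell and 19.7% rose there. XRCC2 (probe set 8144036), a paralogue of the strand-exchange recombinase that helps to load it, was at 10.77 and 10.78 on the hESC arrays, 8.35 and 8.88 on the INM arrays and 8.69 and 8.40 on the SMC arrays. Both derivatives lay far below the stem cells and overlapped each other. The change of XRCC2 was -2.16 (SE 0.20, adjusted p = 5.7e-04) in INM versus hESC, a 4.45-fold fall of the signal, and -2.23 (SE 0.20, adjusted p = 3.2e-04) in SMC versus hESC. SMC versus INM was not called, at -0.07 (adjusted p = 0.84). BLM (probe set 7986068), the helicase lost in Bloom syndrome, was at 9.32 and 9.32 in the stem cells, 8.50 and 9.14 at day 4 (INM) and 7.84 and 7.80 at day 21 (SMC). Its groups did not overlap, and it fell by 1.0 in SMC versus INM (SE 0.21, adjusted p = 0.018) and by 1.5 in SMC versus hESC (SE 0.21, adjusted p = 0.0019). EXO1, a nuclease that resects broken ends and also serves mismatch repair, was at 8.83 and 8.80 on the hESC arrays, 7.79 and 8.79 on the INM arrays and 7.56 and 7.33 on the SMC arrays. One INM array of EXO1 was at the stem cell level and the other a full log2 unit lower. EXO1 fell in SMC versus hESC (-1.37, SE 0.30, adjusted p = 0.013).

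RAD54L, a motor protein that drives strand exchange, was at 8.02 and 8.0 in the stem cells, 6.80 and 7.56 at day 4 (INM) and 6.53 and 6.64 at day 21 (SMC). Its groups did not overlap, and it fell in INM versus hESC (-0.83, SE 0.24, adjusted p = 0.037) and in SMC versus hESC (-1.43, SE 0.24, adjusted p = 0.0042). In SMC versus INM it was not called (-0.60, adjusted p = 0.13). Its relative RAD54B was at 8.55 and 8.65 for hESC, 8.26 and 8.25 for INM and 8.17 and 8.12 for SMC, and fell in SMC versus hESC (-0.45, SE 0.11, adjusted p = 0.018). RAD51C, another paralogue of the recombinase, went the opposite way. It was at 7.12 and 7.23 on the hESC arrays, 6.85 and 6.83 on the INM arrays and 7.56 and 7.56 on the SMC arrays, and it was the 1 member that rose in SMC versus INM (0.72, SE 0.11, adjusted p = 0.0061). BRCA1, which recruits the recombination machinery to breaks, was at 7.69 and 7.66 in the stem cells, 7.01 and 8.08 at day 4 (INM) and 6.76 and 6.67 at day 21 (SMC). The SMC arrays of BRCA1 lay about 1 log2 unit under the stem cells, but it was not called with all arrays (-0.96, SE 0.31, adjusted p = 0.053). In INM versus hESC the direction of BRCA1 rested on the array chosen, at 0.40 without INM replicate 1 (adjusted p = 0.033) and -0.66 without INM replicate 2 (adjusted p = 0.0040). XRCC3, the partner of RAD51C, was not called in any comparison and had a change of -0.44 (adjusted p = 0.15) in SMC versus hESC.

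**Figure D3:**
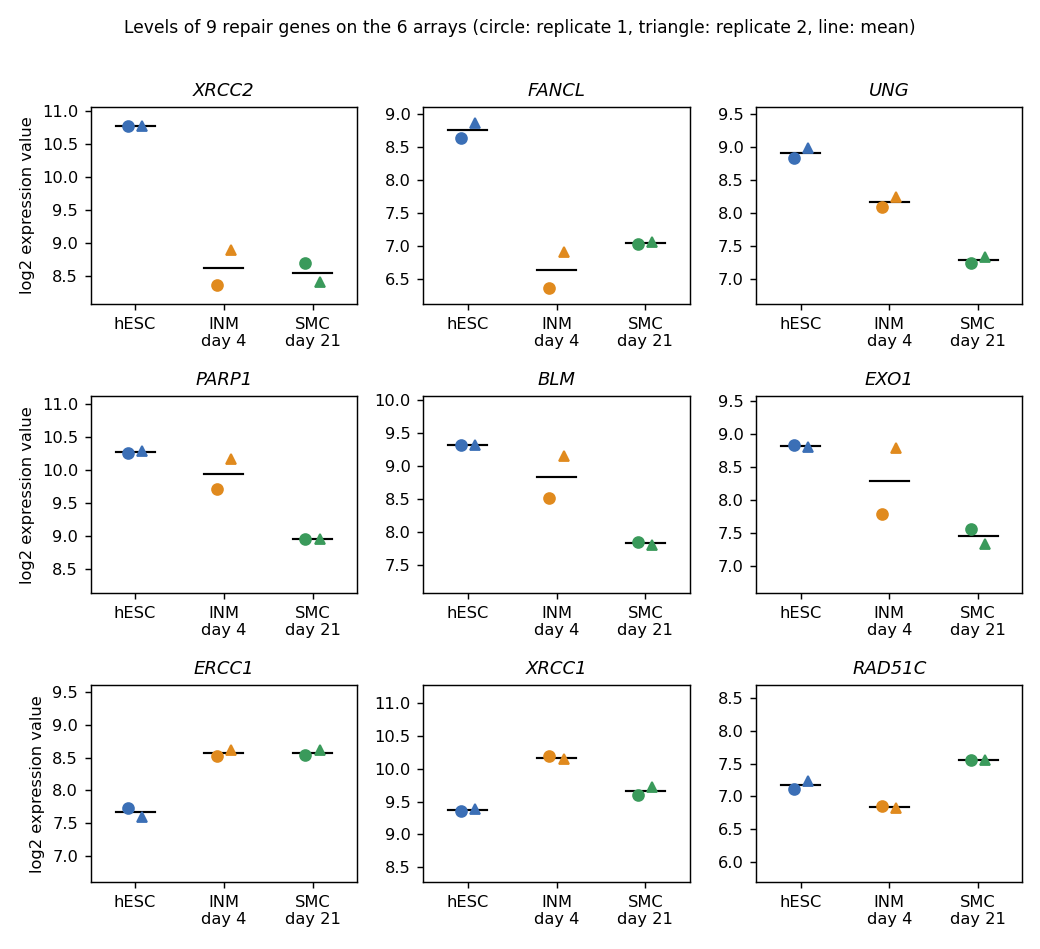
Log2 expression values (vertical axis, each panel spanning 3 log2 units) of 9 repair genes on the hESC, INM and SMC arrays, with replicate 1 as a circle, replicate 2 as a triangle and the group mean as a line. XRCC2 and FANCL are low in both derivatives, PARP1 and UNG are lowest in SMC, ERCC1 is high in both derivatives, XRCC1 is highest in INM, and the INM arrays of EXO1 and BLM stand apart.

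The start regions of the 4 members with the largest called changes, XRCC2, FANCL, UNG and BLM, are shown for the letters of cell cycle factors in them. Each window holds 250 bases before and 50 bases after a start site in RefSeq, build GRCh38.p14, and is printed 5′ to 3′ in the direction of the gene. Capitals mark matches, on either strand, to letters bound by E2F, the factor family that switches on genes of S phase. The letters searched were TTTGGCGC, TTTCCCGC, TTTGCCGC and TTTCGCGC. UNG has 2 windows, for alternative starts.
XRCC2 promoter window, chr7:152676092-152676391, minus strand: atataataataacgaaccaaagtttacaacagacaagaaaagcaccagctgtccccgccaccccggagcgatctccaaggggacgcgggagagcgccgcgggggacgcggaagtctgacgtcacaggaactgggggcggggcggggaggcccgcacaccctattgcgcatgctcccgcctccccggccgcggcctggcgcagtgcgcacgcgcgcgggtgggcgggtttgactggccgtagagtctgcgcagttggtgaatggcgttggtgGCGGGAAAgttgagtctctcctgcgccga
FANCL promoter window, chr2:58241276-58241575, minus strand: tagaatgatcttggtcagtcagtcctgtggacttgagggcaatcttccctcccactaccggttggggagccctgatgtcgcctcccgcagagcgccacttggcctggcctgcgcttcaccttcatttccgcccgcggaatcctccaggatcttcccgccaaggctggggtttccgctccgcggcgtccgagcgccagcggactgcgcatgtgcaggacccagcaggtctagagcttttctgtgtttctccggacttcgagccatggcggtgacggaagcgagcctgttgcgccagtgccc
UNG promoter window, chr12:109097347-109097646, plus strand: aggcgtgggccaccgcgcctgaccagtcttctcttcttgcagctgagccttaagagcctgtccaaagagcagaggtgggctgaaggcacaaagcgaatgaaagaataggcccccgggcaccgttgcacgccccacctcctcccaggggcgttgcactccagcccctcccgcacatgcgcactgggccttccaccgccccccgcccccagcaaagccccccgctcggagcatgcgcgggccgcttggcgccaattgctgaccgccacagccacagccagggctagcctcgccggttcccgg
UNG promoter window, chr12:109097922-109098221, plus strand: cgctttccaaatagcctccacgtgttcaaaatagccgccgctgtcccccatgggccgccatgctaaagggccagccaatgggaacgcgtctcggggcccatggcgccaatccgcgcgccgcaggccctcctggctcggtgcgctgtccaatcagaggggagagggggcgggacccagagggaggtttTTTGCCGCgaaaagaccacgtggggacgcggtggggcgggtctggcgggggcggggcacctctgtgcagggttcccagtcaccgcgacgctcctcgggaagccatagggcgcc
BLM promoter window, chr15:90717096-90717395, plus strand: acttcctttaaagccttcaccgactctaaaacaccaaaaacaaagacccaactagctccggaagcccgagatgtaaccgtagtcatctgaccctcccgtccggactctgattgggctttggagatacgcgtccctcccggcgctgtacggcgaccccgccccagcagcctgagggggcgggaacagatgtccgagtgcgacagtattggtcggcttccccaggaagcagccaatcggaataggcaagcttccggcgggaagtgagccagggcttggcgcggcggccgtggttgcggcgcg
XRCC2 had 1 match, on the opposite strand, from base 22 after the start site. The second UNG window had 1 match, from base 63 before the start site. These letters are not in the windows of FANCL and BLM or in the first UNG window. Of the 41 measured members 37 matched at least 1 window, and 9 of those 37 (24.3%) held a match, beside 784 of 14239 tested genes with a window (5.51%) and 3.31% of all 35116 windows. The share was 5 of 18 among members lower in SMC versus hESC and 4 of 15 among members not called there, and 0 of the 4 members that rose held a match, with no test of these shares. Besides XRCC2 and UNG, the falling members with a match were EXO1, MSH6 and LIG1. CCAAT, the letters of NF-Y, stood on either strand in 22 of the 37 members (59.5%) and in 42.2% of tested genes with a window. TTTGAA, the letters of the CHR element of cell cycle genes, stood in 7 of the 37 (18.9%) and in 15.7% of tested genes with a window, and CCGGAAG, the letters of ETS factors, in 7 of the 37 (18.9%) and in 16.8%. Both lay near the share of all genes. GGGCGG, the GC box, stood in 86.5% of the 37 and in 65.9% of tested genes with a window, and the NRF1 motif in 1 of the 37 (2.70%) and in 2.05%. A match describes letters in a window and shows no binding, and genes with several windows have more chances of one.

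Of 7 measured Fanconi genes, 4 fell in SMC versus hESC (57.1%), beside 17.6% of all genes tested. With all arrays 0 of the 7 rose at an adjusted or unadjusted p under 0.05 in limma. FANCL (probe set 8052382), the ubiquitin ligase subunit that marks the pathway's central complex, was at 8.64 and 8.87 on the hESC arrays, 6.36 and 6.90 on the INM arrays and 7.03 and 7.06 on the SMC arrays. It was low in both derivatives, and its INM arrays lay below the SMC arrays. Its change was -2.13 (SE 0.19, adjusted p = 5.6e-04) in INM versus hESC, a 4.37-fold fall, and -1.71 (SE 0.19, adjusted p = 8.6e-04) in SMC versus hESC, while SMC versus INM was not called (0.42, adjusted p = 0.18). FANCI, one of the subunits that FANCL marks, was at 9.12 and 9.22 in the stem cells, 8.61 and 9.41 at day 4 (INM) and 8.12 and 7.69 at day 21 (SMC). Its INM arrays straddled the stem cells, and it fell by 1.11 in SMC versus INM (SE 0.27, adjusted p = 0.032) and by 1.27 in SMC versus hESC (SE 0.27, adjusted p = 0.011). FANCF, an adaptor of the core complex, was at 7.03 and 7.39 on the hESC arrays, 7.52 and 7.42 on the INM arrays and 6.70 and 6.71 on the SMC arrays, and fell in SMC versus INM (-0.77, SE 0.15, adjusted p = 0.014) and SMC versus hESC (-0.51, SE 0.15, adjusted p = 0.034). FANCE, which bridges the core complex to its substrate, was at 8.22 and 8.43 in the stem cells, 8.59 and 8.85 at day 4 (INM) and 7.88 and 8.18 at day 21 (SMC), and fell in SMC versus INM (-0.69, SE 0.16, adjusted p = 0.028). FANCM, the helicase that finds stalled forks, was at 6.50 and 6.79 for hESC, 6.26 and 6.30 for INM and 6.26 and 6.06 for SMC, and fell in SMC versus hESC (-0.48, SE 0.14, adjusted p = 0.038). FANCC and FANCG, further core subunits, were not called in any comparison with all arrays and stood at 0.55 and -0.19 in SMC versus hESC. The SMC arrays lay wholly above the hESC arrays in 1 of the 7 genes, FANCC, and wholly below them in 6. Those shares were 35.0% and 40.3% over all genes tested.

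Mismatch repair was measured through 3 members, of which 2 fell (66.7%) and 0 rose in SMC versus hESC, beside 17.6% and 19.7% of all genes tested. MSH6 (probe set 8041888), a subunit of the complex that recognises base mismatches, was at 9.13 and 9.21 on the hESC arrays, 8.55 and 9.26 on the INM arrays and 8.21 and 7.96 on the SMC arrays. The SMC arrays lay below all others, with changes of -0.82 in SMC versus INM (adjusted p = 0.051) and -1.09 in SMC versus hESC (SE 0.23, adjusted p = 0.011). PMS1, a MutL homologue, was at 9.88 and 9.87 in the stem cells, 8.90 and 9.23 at day 4 (INM) and 9.14 and 9.10 at day 21 (SMC). PMS1 was lower in both derivatives, at -0.81 (SE 0.14, adjusted p = 0.0060) in INM versus hESC and -0.75 (SE 0.14, adjusted p = 0.0063) in SMC versus hESC. MSH3, the alternative partner that recognises larger loops, was not called, at 0.04 in INM versus hESC and -0.26 in SMC versus hESC.

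Of 5 measured nucleotide excision genes, XPA and ERCC1 rose (40%) and ERCC2 and DDB2 fell (40%) in SMC versus hESC. The shares of all genes tested were 19.7% and 17.6%. ERCC1 (probe set 8037579), a subunit of the nuclease that cuts on the 5′ side of a lesion, was at 7.74 and 7.60 on the hESC arrays, 8.52 and 8.61 on the INM arrays and 8.53 and 8.61 on the SMC arrays. The arrays of both derivatives lay together and above the stem cells, with changes of 0.90 (SE 0.12, adjusted p = 0.0021) in INM versus hESC and 0.90 (SE 0.12, adjusted p = 0.0015) in SMC versus hESC. XPA, a scaffold that verifies the lesion, was at 6.57 and 6.70 in the stem cells, 7.07 and 7.42 at day 4 (INM) and 7.20 and 7.17 at day 21 (SMC). It rose by 0.61 in INM versus hESC (SE 0.15, adjusted p = 0.022) and by 0.55 in SMC versus hESC (SE 0.15, adjusted p = 0.027). DDB2, the sensor of ultraviolet damage and a p53 target, was at 8.07 and 8.01 on the hESC arrays, 7.60 and 7.67 on the INM arrays and 7.60 and 7.75 on the SMC arrays. It fell in INM versus hESC (-0.40, SE 0.12, adjusted p = 0.039) and, close to the threshold, in SMC versus hESC (-0.36, SE 0.12, adjusted p = 0.049). ERCC2, a helicase of the transcription factor TFIIH, was at 9.73 and 9.69 for hESC, 9.61 and 9.74 for INM and 9.22 and 9.37 for SMC, and fell in SMC versus hESC (-0.41, SE 0.12, adjusted p = 0.034). XPC, the sensor of bulky lesions, was not called, with changes of 0.27 in INM versus hESC and 0.17 in SMC versus hESC.

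Base excision and strand break repair had 9 members, of which 5 fell (55.6%) and 0 rose in SMC versus hESC in limma's adjusted test. That stood beside 17.6% and 19.7% of all genes tested, and at an unadjusted p under 0.05 in limma 6 members fell and 1 rose. UNG (probe set 7958455), the glycosylase that removes uracil from DNA, was at 8.84 and 8.98 in the stem cells, 8.09 and 8.24 at day 4 (INM) and 7.24 and 7.32 at day 21 (SMC). UNG fell at both steps without overlap, by 0.75 in INM versus hESC (SE 0.12, adjusted p = 0.0049) and by 0.88 in SMC versus INM (SE 0.12, adjusted p = 0.0042). The whole change of UNG in SMC versus hESC was -1.62 (SE 0.12, adjusted p = 1.7e-04), a 3.08-fold fall. PARP1 (probe set 7924733), the main enzyme that marks strand breaks with poly-ADP-ribose, was at 10.26 and 10.30 on the hESC arrays, 9.71 and 10.17 on the INM arrays and 8.96 and 8.96 on the SMC arrays. The SMC arrays of PARP1 lay far below all others. It was not called in INM versus hESC (-0.34, adjusted p = 0.16), and its changes were -0.98 (SE 0.16, adjusted p = 0.0086) in SMC versus INM and -1.32 (SE 0.16, adjusted p = 0.0013) in SMC versus hESC. PARP2, its relative, was not called in any comparison and was at 8.69 and 8.94 in the stem cells, 8.78 and 9.11 at day 4 (INM) and 9.09 and 8.95 at day 21 (SMC).

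NEIL3, a glycosylase of dividing cells, was at 8.93 and 9.06 on the hESC arrays, 7.85 and 8.31 on the INM arrays and 8.11 and 8.02 on the SMC arrays. It fell by 0.91 in INM versus hESC (SE 0.17, adjusted p = 0.0084) and by 0.93 in SMC versus hESC (SE 0.17, adjusted p = 0.0064), with -0.01 in SMC versus INM (adjusted p = 0.97). XRCC1 (probe set 8037331), the scaffold of single-strand break repair, peaked at day 4. It was at 9.35 and 9.38 in the stem cells, 10.19 and 10.15 at day 4 (INM) and 9.60 and 9.72 at day 21 (SMC), and its INM arrays lay above all others. XRCC1 rose by 0.80 in INM versus hESC (SE 0.11, adjusted p = 0.0027) and fell by 0.50 in SMC versus INM (SE 0.11, adjusted p = 0.022). In SMC versus hESC XRCC1 was not called (0.30, adjusted p = 0.078). LIG3, the ligase that XRCC1 binds, was at 9.44 and 9.52 for hESC, 9.20 and 9.68 for INM and 8.67 and 8.76 for SMC, and fell in SMC versus INM (-0.73, SE 0.17, adjusted p = 0.028) and in SMC versus hESC (-0.76, SE 0.17, adjusted p = 0.013). LIG1, the replicative ligase, was at 7.71 and 7.64 for hESC, 7.52 and 7.81 for INM and 7.22 and 7.26 for SMC. Both ligases were lowest in the smooth muscle cells, and LIG1 fell in SMC versus hESC (-0.44, SE 0.13, adjusted p = 0.042). APEX1, the endonuclease of abasic sites, and OGG1, the glycosylase of oxidised guanine, were not called and stood at -0.30 and 0.16 in SMC versus hESC.

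Of 5 measured end joining genes 1 rose and 1 fell in SMC versus hESC (20% each), near the 19.7% and 17.6% of all genes tested. In INM versus hESC 1 rose (20%) and 0 fell, where 18.9% of all genes rose and 14.8% fell. XRCC4, the partner of the end-joining ligase, was at 7.61 and 7.63 on the hESC arrays, 7.71 and 8.24 on the INM arrays and 8.46 and 8.30 on the SMC arrays. It rose in SMC versus hESC (0.76, SE 0.19, adjusted p = 0.019). The ligase LIG4 was at 7.15 and 7.07 for hESC, 7.60 and 7.51 for INM and 7.36 and 7.45 for SMC. Its derivatives lay above the stem cells without overlap. It rose in INM versus hESC (0.45, SE 0.11, adjusted p = 0.024) and stood at 0.29 (adjusted p = 0.084) in SMC versus hESC. XRCC5, which forms the end-binding Ku ring with XRCC6, was at 10.96 and 10.95 for hESC, 10.87 and 10.96 for INM and 10.52 and 10.43 for SMC, and fell in SMC versus hESC (-0.48, SE 0.11, adjusted p = 0.015) and in SMC versus INM (-0.44, SE 0.11, adjusted p = 0.035). XRCC6 was not called, at -0.57 (adjusted p = 0.056) in SMC versus hESC. PRKDC, the kinase that Ku recruits, had INM arrays at 9.26 and 10.19 and was not called in any comparison.

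Both effector kinases of the checkpoint fell in SMC versus hESC, and neither sensor kinase was called. The falls made 50% of the 4 kinases, beside 17.6% of all genes tested. CHEK1 (probe set 7945014), which ATR activates, was at 9.63 and 9.66 in the stem cells, 9.14 and 9.78 at day 4 (INM) and 8.74 and 8.52 at day 21 (SMC). It fell by 0.84 in SMC versus INM (SE 0.21, adjusted p = 0.038) and by 1.02 in SMC versus hESC (SE 0.21, adjusted p = 0.011). CHEK2, which ATM activates, was at 7.48 and 7.38 on the hESC arrays, 6.24 and 7.10 on the INM arrays and 6.47 and 6.46 on the SMC arrays, and fell in SMC versus hESC (-0.97, SE 0.26, adjusted p = 0.028). ATM was at 8.35 and 8.52 in the stem cells, 8.09 and 8.60 at day 4 (INM) and 8.70 and 8.52 at day 21 (SMC), and ATR at 7.55 and 7.60 on the hESC arrays, 7.27 and 7.78 on the INM arrays and 7.62 and 7.44 on the SMC arrays. Neither was called in any comparison, and the difference between the sensors and the effectors was not tested. They are among 13 members called in no comparison with all arrays, with BRCA1, XRCC3, FANCC, FANCG, MSH3, XPC, OGG1, APEX1, PARP2, XRCC6 and PRKDC. The changes of these 13 ran between -0.36 and 0.34 in INM versus hESC and between -0.96 and 0.55 in SMC versus hESC. With only the 4 arrays of hESC and SMC fitted, BRCA1, XRCC3, APEX1, XRCC6 and PRKDC were called lower and FANCC higher in SMC versus hESC. In that fit 9200 of 18417 genes were called.

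**Figure D4:**
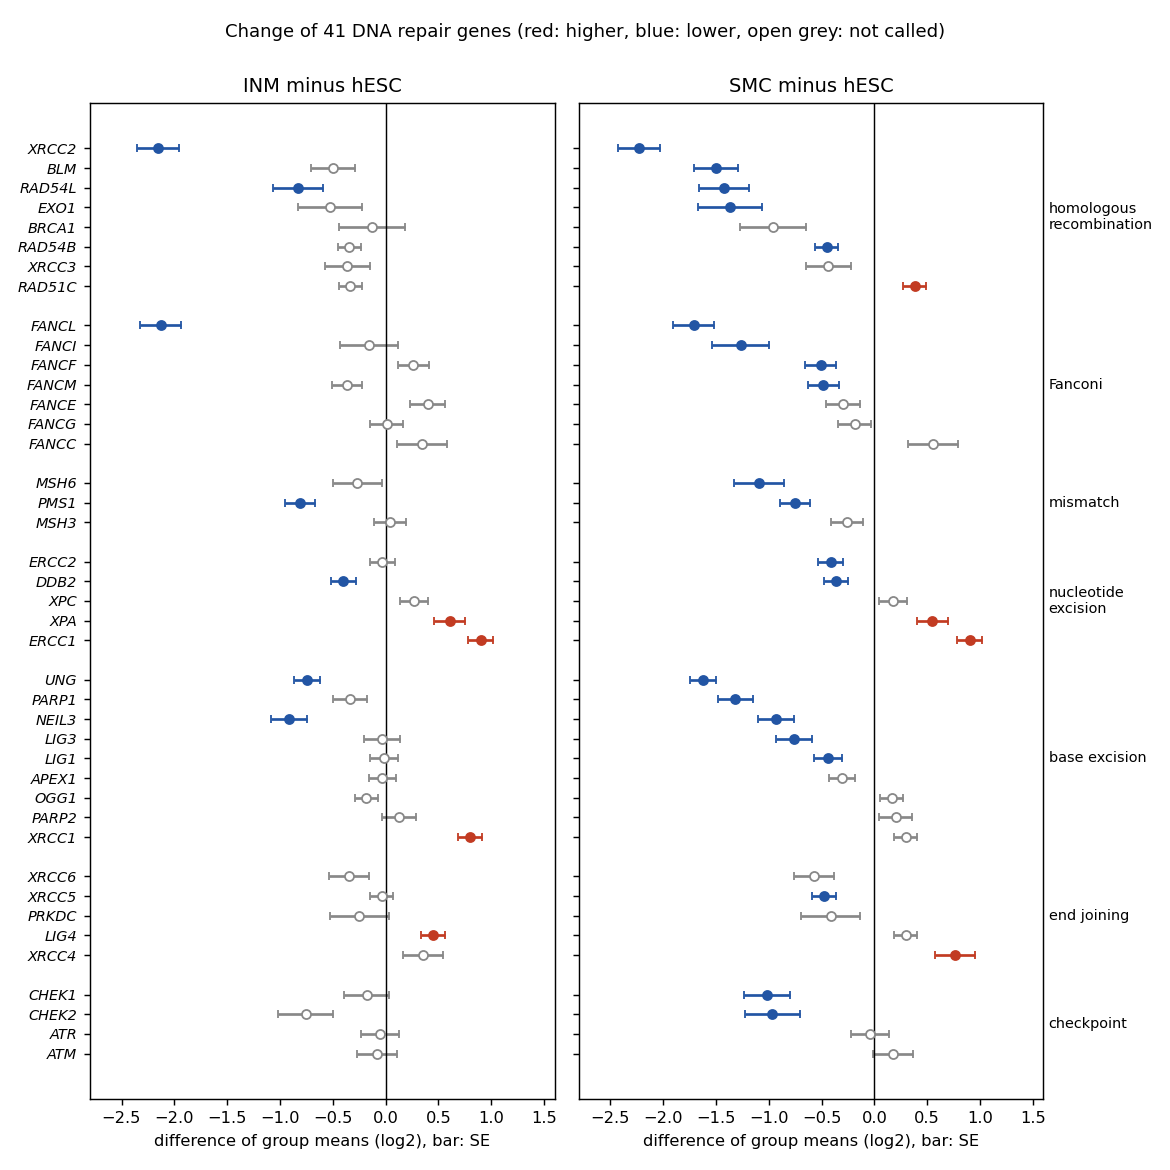
Difference of group means (log2, horizontal axis) with its SE for each of the 41 members, grouped by pathway, in INM minus hESC (left) and SMC minus hESC (right). Blue points fell, red points rose and open grey points were not called. XRCC2 and FANCL lie lowest at day 4, and most recombination, base excision and effector kinase genes lie left of 0 at day 21, with ERCC1, XPA, XRCC4 and RAD51C to the right.

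Calls differed in how far they rested on 1 array. In SMC versus hESC, 6 of the 21 falls (XRCC2, FANCL, UNG, BLM, RAD54L and PARP1) and 1 of the 4 rises (ERCC1) were kept in each of the 6 fits with 1 array left out. Of the 21 falls, 10 were kept without hESC replicate 1, 7 without hESC replicate 2, 11 without SMC replicate 1 and 6 without SMC replicate 2, and 21 without each INM array, when 26 were called in all. Over all genes tested, the share called lower there was 9.86%, 10%, 9.24% and 8.95% in those 4 fits and 24.8% without each INM array. Of the 4 rises, 1 was kept without each of those hESC and SMC arrays, and 7 members were called higher without each INM array. In INM versus hESC the calls of XRCC2, FANCL, PMS1, UNG, ERCC1 and XRCC1 were kept in all 6 such fits. The counts of rises and falls there moved with the array left out, for members and for all genes tested. In SMC versus INM 0 of the 11 calls were kept in all 6. Without SMC replicate 1 limma called 0 members there, with 11 lower and 1 higher at an unadjusted p under 0.05, and without SMC replicate 2 it called 1 lower and 0 higher, with 11 and 1 unadjusted. Leaving out a hESC or INM array also moved the counts in SMC versus INM, for members and for all genes tested. With each array centred on its own median, which moved the median of all genes by 0.19 in INM versus hESC and 0.13 in SMC versus hESC, 13 members fell and 6 rose in SMC versus hESC, where 12.5% of all genes fell and 24.8% rose. In INM versus hESC 5 members then fell and 6 rose, where 8.63% of all genes fell and 27.7% rose. RAD54B, FANCF, FANCM, ERCC2, DDB2, LIG1, XRCC5 and CHEK2 were the members that lost their fall in SMC versus hESC under that centring, and RAD54L and DDB2 lost theirs in INM versus hESC. The members' median in INM versus hESC changed sign with it, to 0.03.

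The other genes of these pathways, 92 measured of 104 listed, moved in both directions. In SMC versus hESC 24 fell (26.1%) and 15 rose (16.3%), beside 17.6% and 19.7% of all genes tested. In INM versus hESC 6 fell (6.52%) and 19 rose (20.7%), beside 14.8% and 18.9% of all genes. In both comparisons the share that rose lay near that of all genes. Of 24 further recombination genes 13 fell and 2 rose in SMC versus hESC, among them DNA2, a resection nuclease (-1.61, SE 0.22, adjusted p = 0.0020), and POLQ, the polymerase of microhomology joining (-1.55, SE 0.18, adjusted p = 0.0010), while HELQ and SWI5 rose. POLQ was already lower in INM versus hESC (-1.16, SE 0.18, adjusted p = 0.0044). BARD1, the partner of BRCA1, was at 7.85 and 8.02 in the stem cells, 7.91 and 8.07 at day 4 (INM) and 6.99 and 6.93 at day 21 (SMC), and fell in SMC versus INM (-1.03, SE 0.12, adjusted p = 0.0026). Its INM arrays lay with the stem cells, and only its SMC arrays were low. Of 14 checkpoint and signalling genes 7 fell and 1 rose (TP53BP1) in SMC versus hESC. WEE1, the kinase that holds back entry into mitosis, fell by 1.88 in SMC versus INM (SE 0.20, adjusted p = 0.0017) and by 1.77 in SMC versus hESC (SE 0.20, adjusted p = 9.0e-04). TOPBP1, an activator of ATR, and CLSPN, the adaptor between ATR and CHEK1, fell in SMC versus INM (-1.05, SE 0.14 and -1.04, SE 0.27).

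Among the 12 further nucleotide excision genes, 8 rose (66.7%) and 0 fell in INM versus hESC in limma's adjusted test, with 10 higher and 0 lower at an unadjusted p under 0.05. Of all genes tested, 18.9% were called higher there and 14.8% lower. Fits without an INM array were looked at after seeing the data, leave 1 INM array and are not counted for these 12 genes. INM replicate 2 was the higher array in 10 of the 12, with a median of replicate 1 minus replicate 2 of -0.13. Both INM arrays lay wholly above the hESC arrays in 10 of the 12 and wholly below them in 0. Those counts were 6135 and 6431 of 18417 genes tested. In SMC versus hESC 5 rose (ERCC4, CETN2, GTF2H1, GTF2H5 and XAB2) and 0 fell, beside 19.7% and 17.6% of all genes tested, with 1 lower at an unadjusted p under 0.05 in limma. In SMC versus INM ERCC3, RAD23B and XAB2 fell. CETN2, a subunit of the lesion sensor with XPC, was at 9.35 and 9.28 on the hESC arrays, 10.49 and 10.59 on the INM arrays and 10.48 and 10.46 on the SMC arrays, and rose by 1.23 in INM versus hESC (SE 0.11, adjusted p = 5.5e-04). GTF2H5, a small subunit of TFIIH, rose by 1.16 (SE 0.16, adjusted p = 0.0026), and ERCC4, the catalytic partner of ERCC1, by 0.93 (SE 0.18, adjusted p = 0.010). ERCC4 was at 6.70 and 7.21 in the stem cells, 7.96 and 7.81 at day 4 (INM) and 7.80 and 7.68 at day 21 (SMC), so both subunits of that nuclease were higher in both derivatives. The mismatch gene MLH3 rose in INM versus hESC (0.45), UBE2T, the partner enzyme of FANCL, fell there (-0.49), and 0 of 10 further Fanconi genes were called in SMC versus hESC, with 3 higher and 2 lower at an unadjusted p under 0.05 in limma. Without each INM array in turn 3 were called each way.

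**Figure D5:**
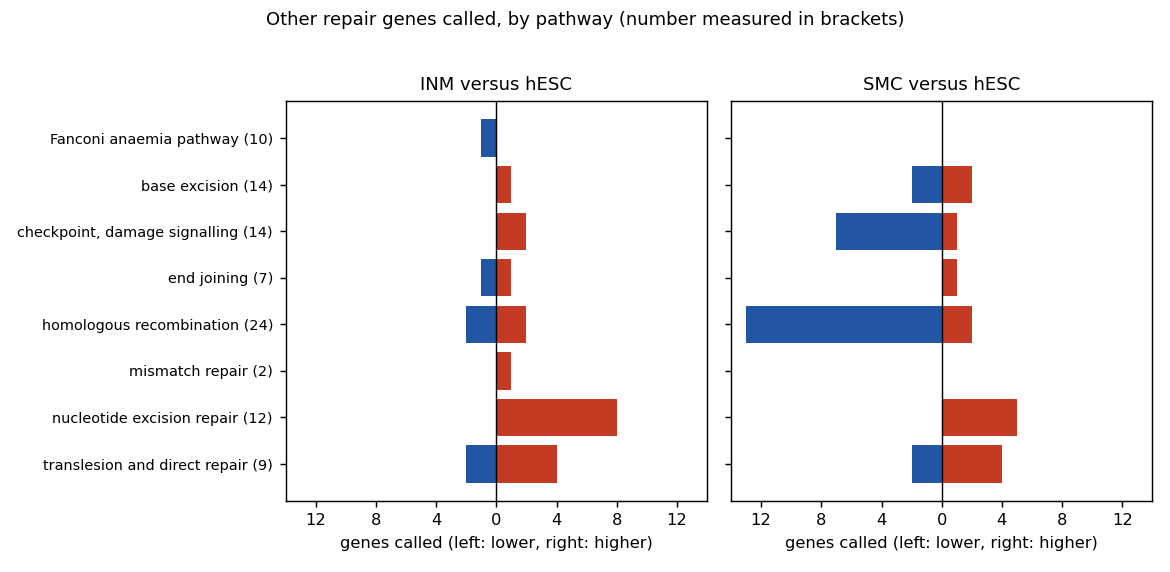
Number of other repair genes called lower (left of 0) and higher (right of 0) on the horizontal axis, by pathway, in INM versus hESC and SMC versus hESC, with the number measured in brackets. Recombination shows 13 lower and 2 higher in SMC versus hESC, and nucleotide excision 8 higher and 0 lower in INM versus hESC.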

How the data were processed

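The authors deposited log2 expression values of 33297 probe sets on 6 arrays, between 1.36 and 14.1, with the scale inferred from that range. RMA and limma appear in the submitters' processing notes with no version, and the build and any centring were not given in the sources used here. By the platform's annotation 19460 probe sets carried 1 symbol, 1754 several and 12083 none. Symbols were updated by Entrez identifier (19429 matched, 31 kept), and the probe set with the highest mean was kept per gene.

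Values were used as deposited, without a filter. A model of 3 group means over all 6 arrays, sharing 1 spread, was fitted with limma 3.58.1 in R 4.3.3 (3 residual and 3.56 prior degrees of freedom). The test was two-sided and adjusted by Benjamini-Hochberg over 18417 genes. It was also run on simulated data in which the 3 groups had the same spread. The INM pair here was wider than the others, so that run cannot show how the test behaves with unequal spreads. Changes are differences of mean log2 values, folds are ratios of RMA signals, and the number of arrays limits the precision. For a single gene, exact permutation of 2 arrays versus 2 allows no p below 0.333. No member's group mean was under 5.04, the median of unnamed probe sets on the lowest array.

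The 41 measured members are each named with a value, and the 4 listed genes without a usable probe set have none. Of the other repair genes those named are the 4 with the largest called change per comparison and those behind counts of 5 or fewer. Partners in shared promoter windows and endothelial markers were named after their values were seen. The members and lists were chosen with earlier results of these data known. The 14 alternatives changed the scaling, filter, probe set rule, prior, array weights, replicate block or arrays used.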

Additional observations from a re-analysis of the deposited data

How the results depend on the processing

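Leaving out 1 array moved the number of members called higher in INM versus hESC between 2 and 8 and called lower between 4 and 18, in SMC versus INM between 0 and 6 and between 0 and 20, and in SMC versus hESC between 1 and 7 and between 6 and 26, beside 4 and 7, 1 and 10, and 4 and 21 with all arrays. Over all genes the calls moved between 2939 and 7520 (6217 with all arrays), between 1134 and 6143 (3874) and between 3803 and 9200 (6859). Fits without an array have fewer residual degrees of freedom, and without an INM array the spread is estimated from closer pairs. A group left with 1 array is assumed to vary like the others. The change of BRCA1 in INM versus hESC was -0.66 without INM replicate 2 and 0.40 without INM replicate 1. With only the 4 arrays of the groups compared, 2 members rose in INM versus hESC, 3 fell in SMC versus INM (2541 genes over all) and 7 rose in SMC versus hESC. With array weights per group 7 rose in SMC versus hESC. Median centring left 13 falls in SMC versus hESC, and falls were then 68.4% of the calls there and 45.5% in INM versus hESC, beside 84% and 63.6% as deposited. The cause was not tested. With the replicate number as a block, 4 members rose and 6 fell in INM versus hESC, 1 and 9 in SMC versus INM, and 3 and 19 in SMC versus hESC. The differences between replicates 1 and 2 correlated across genes at 0.07 between hESC and INM, -0.12 between hESC and SMC and -0.07 between INM and SMC. Such low values cannot decide whether samples of the same replicate number shared a culture or batch, and the labels state no pairing. Quantile normalization, the low-signal filter, the mean over probe sets and an intensity trend kept each of the 6 counts within 1.5 times. No measured member had a second single-symbol probe set or a mean under the filter's limit. The filter and the probe set mean could therefore move member calls only through the other genes, and say nothing on the members' own values.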

Other observations

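Genes that bypass or directly reverse DNA damage were not among the members. Of 9 measured, 4 rose (44.4%) and 2 fell (22.2%) in SMC versus hESC, beside 19.7% and 17.6% of all genes tested. POLH, the polymerase that copies past ultraviolet lesions, was at 6.60 and 6.85 on the hESC arrays, 7.61 and 7.48 on the INM arrays and 8.27 and 8.31 on the SMC arrays, with a change of 1.56 (SE 0.13, adjusted p = 2.7e-04, limma) in SMC versus hESC. It stepped up at each stage without overlap. The bypass polymerases POLK and REV3L rose in SMC versus hESC by 0.99 and 0.89, ALKBH3, an enzyme that reverses alkyl damage, rose by 0.74, and REV1 and RAD18 fell by 0.67 and 0.62. POLH is also known as a p53 target, and of 12 other p53 targets 5 rose in SMC versus hESC (CDKN1A, GADD45A, SESN2, ZMAT3 and TNFRSF10B) and 1 fell (RRM2B). These were 41.7% and 8.33%, beside 19.7% and 17.6% of all genes tested. DDB2, a p53 target among the members and not on that list, fell there. The part of p53 was not tested.

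Several repair genes share a promoter window with a gene on the opposite strand, and examples of their changes in SMC versus hESC follow. BRCA1 stood at -0.96 while NBR1, whose window overlaps 1 of its windows, rose by 1.0 (SE 0.12, adjusted p = 0.0013), and NBR2 was at 0.14. PMS1 fell by 0.75 with ORMDL1 at -0.10, and CHEK2 fell by 0.97 with HSCB at -0.17. The differences between partners were not tested. Across the 41 members, the gap between the INM arrays (replicate 1 minus replicate 2) and the change in SMC versus hESC, which use different arrays, had a Pearson correlation of 0.43 and a Spearman correlation of 0.46, and across all 18417 genes 0.17 and 0.15. Genes are not independent replicates, and these values are a description.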
